A study of Homo sapiens with 12 samples.

Results

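Aminoacyl-tRNA synthetases are the enzymes that attach each amino acid to its tRNA, the step that fixes which amino acid a codon is read as. The set described here holds 37 synthetase genes, chosen by name from the table of normalized reads under their older symbols (without the final 1 that current symbols such as WARS1 carry). All 37 were found among the 28035 genes listed and all 37 were among the 15990 genes with enough reads to be tested. Of these, 19 encode enzymes of the cytosol, 16 encode enzymes of the mitochondrion, and 2, GARS and KARS, supply both compartments from a single gene.

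Most amino acids have a separate cytosolic and mitochondrial synthetase, and the mitochondrial enzymes are also made from nuclear genes and imported. Several cytosolic enzymes sit with the scaffold proteins AIMP1, AIMP2 and EEF1E1 in a multisynthetase complex. When tRNAs are left uncharged, the kinase GCN2 (gene EIF2AK4) raises translation of the transcription factor ATF4, which is known to induce many cytosolic synthetase genes. WARS, the cytosolic tryptophanyl-tRNA synthetase, is in addition a well-known interferon-inducible gene.

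The RNA came from OVCAR-3, an established epithelial cell line from a human ovarian adenocarcinoma, labelled wild type in every group. There were 4 groups of 3 libraries, all at 6 h: cells given both FC-A (fusicoccin A, a fungal diterpene glycoside) and interferon alpha, called Combination; interferon alpha alone, called IFNa; FC-A alone; and the vehicle DMSO alone. The sources used here give no doses. All results describe a single cell line, and the labels do not say whether replicates were separate cultures, so p-values measure the spread between these libraries, which may be technical.

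Libraries held 31.2 to 39.5 M (mega) reads over the listed genes. The sums of normalized reads were 36.9 ± 0.128 M in Combination, 37.02 ± 0.687 M in IFNa, 32.2 ± 0.519 M in FC-A and 32.4 ± 0.177 M in DMSO (SD, n = 3 each), so the total on the authors' scale moved with interferon. The 6 epithelial markers summed to between 220832 and 309048 normalized reads per library over the 4 groups. The 4 listed leukocyte markers summed to between 194 and 313, without a separation of the groups. The fibroblast list summed to 1528 to 2137 normalized reads in Combination, 1364 to 1891 in IFNa, 911 to 999.7 in FC-A and 770.2 to 853 in DMSO. The collagen gene COL1A1 (768 to 2133) made up most of it, while DCN reached at most 1.90, LUM at most 1.02 and COL3A1 at most 8.16. The endothelial list summed to 181.5 to 232 in Combination, 193 to 253 in IFNa, 253 to 341 in FC-A and 286 to 359 in DMSO. The part of these markers and of the total in the results was not tested. The third replicate of the 4 groups stood apart from the other libraries in 22.3% of all genes and in 7 of the 37 synthetase genes, so counts are also given without it.

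WARS was the synthetase gene that responded most to interferon. Its promoter windows are shown because one of them holds motifs through which interferon signals are known to act. RefSeq lists 2 starts for the gene (WARS1 there) in GRCh38.p14, both on the minus strand of chromosome 14, each given as 250 bases before to 50 bases after the start. Capitals mark the core of the interferon-stimulated response element (ISRE), which is GAAA and again GAAA with any 2 bases between them, and TTCNNNGAA, the gamma-activated sequence (GAS), another element of interferon-inducible promoters.
WARS downstream start, chr14:100375298-100375597: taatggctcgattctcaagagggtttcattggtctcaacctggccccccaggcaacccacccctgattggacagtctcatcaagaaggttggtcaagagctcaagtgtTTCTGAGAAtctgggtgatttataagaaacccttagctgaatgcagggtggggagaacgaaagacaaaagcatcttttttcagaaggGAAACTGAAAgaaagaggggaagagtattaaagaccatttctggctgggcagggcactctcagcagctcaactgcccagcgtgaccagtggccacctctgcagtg
WARS upstream start, chr14:100376278-100376577: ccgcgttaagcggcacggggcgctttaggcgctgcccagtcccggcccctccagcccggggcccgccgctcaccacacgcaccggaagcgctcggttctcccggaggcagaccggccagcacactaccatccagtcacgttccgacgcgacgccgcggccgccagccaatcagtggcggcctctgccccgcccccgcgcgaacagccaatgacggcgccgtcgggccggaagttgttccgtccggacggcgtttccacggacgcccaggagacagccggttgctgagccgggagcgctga
EARS2, chromosome 16, minus strand: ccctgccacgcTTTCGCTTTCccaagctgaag
In the downstream WARS window the ISRE match began at position -55 and the GAS match at position -142, counted back from the start. The upstream WARS window held neither. Both strands were searched, and GAS reads the same on each. Of all 35116 RefSeq windows of this length, 3.57% held the ISRE letters and 7.66% the GAS letters. Counted by gene, with any window of a gene sufficing, the shares were 4.38% and 9.38% of 27305 genes. Among the 30 synthetase genes with a window, the ISRE letters were also found for EARS2, the mitochondrial glutamyl enzyme, on the other strand at -198 of one start. The GAS letters were found for 5 of the 30: WARS, CARS, TARS, PARS2 and WARS2. Of these, CARS and TARS rose and WARS2 and PARS2, the mitochondrial prolyl enzyme, were not called in IFNa against DMSO (log2 -0.01 for WARS2 and -0.11 for PARS2). The reads were not separated by start, so which start was used is not given by these data.

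WARS had 46925, 48543 and 60413 normalized reads in the Combination libraries and 39237, 36881 and 47271 in the IFNa libraries. It had 4916, 4634 and 4438 in the FC-A libraries and 4824, 4809 and 4819 in the DMSO libraries. Every library with interferon lay far above every library without it. The RNA was from whole cultures, so more RNA per cell and more cells expressing the gene cannot be told apart. In IFNa against DMSO cells WARS rose 8.49-fold (95% interval 7.37 to 9.77), a log2 change of 3.09 with an SE of 0.09 and an adjusted p of 2.498e-12 in limma. In Combination against DMSO cells it rose 10.7-fold (9.31 to 12.3; adjusted p 6.56e-13). By log2 change it ranked 161 of 15990 genes in IFNa against DMSO and 147 in Combination against DMSO. Its mitochondrial counterpart WARS2 averaged 734 ± 32.9 normalized reads in Combination, 784 ± 71.4 in IFNa, 729 ± 14.9 in FC-A and 785 ± 40.4 in DMSO (SD, n = 3 each). WARS2 was not called in any comparison, with a log2 difference of -0.01 (-0.16 to 0.15) in IFNa against DMSO.

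**Figure D1:**
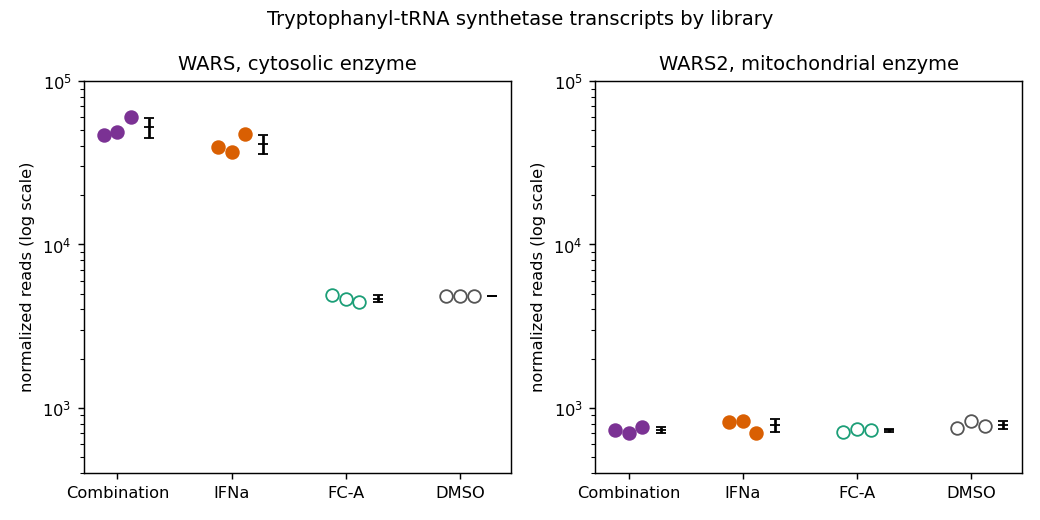
Normalized reads (log scale) of WARS and WARS2 in each of the 12 libraries, with the mean ± SD of 3 libraries beside the points. WARS lies between 36881 and 60413 in the 6 libraries with interferon and between 4438 and 4916 in the 6 without, while WARS2 lies between 699.9 and 830.4 throughout.

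To compare levels between genes, normalized reads were divided by the total length of each gene's annotated exons. On this scale WARS reached 8172 normalized reads per kb in Combination and 6469 in IFNa, first of the 37 in both. It stood at 733 in FC-A and 758 in DMSO, 14th and 13th of the 37. WARS made up 21.5 to 26.0% of the summed length-scaled level of all 37 genes in Combination libraries and 16.97 to 21.8% in IFNa libraries. That share was 2.74 to 2.80% in FC-A libraries and 2.80 to 2.83% in DMSO libraries. The ratio of WARS to WARS2 on this scale was 42.9 in Combination, 31.7 in IFNa, 3.87 in FC-A and 3.71 in DMSO. A length that counts all annotated exons overstates the length in use, so these levels are approximate.

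In DMSO cells the cytosolic enzymes were the more abundant transcripts. Length-scaled levels ran from 47.7 to 1834 normalized reads per kb (median 984) over the 19 cytosolic genes and from 70.8 to 1559 (median 196) over the 16 mitochondrial genes. The dual genes stood at 692 for GARS, glycyl, and 1949.6 for KARS, lysyl, the highest of all 37. The lowest level was that of TARSL2, a second cytosolic threonyl enzyme, at 47.7 against 1631 for TARS. Genes were paired by name where the mitochondrial symbol was the cytosolic one with a final 2. Among these 13 pairs the cytosolic gene was higher in 11, with a median ratio of 4.01. The highest ratio among them was 14.3 for the seryl pair SARS and SARS2. The phenylalanyl, glutamyl and prolyl enzymes are not in these pairs. FARSA stood at 1750 and FARSB at 698 against 70.8 for FARS2, and EPRS at 1542 against 189 for EARS2 and 169 for PARS2. The isoleucyl and tyrosyl pairs ran the other way, with IARS at 0.44 of IARS2 and YARS at 0.604 of YARS2. SARS2 is uncertain, because 46.2% of its exon length is shared on the same strand with a neighbouring transcript, and so is VARS2, which shares exon length with GTF2H4.

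**Figure D2:**
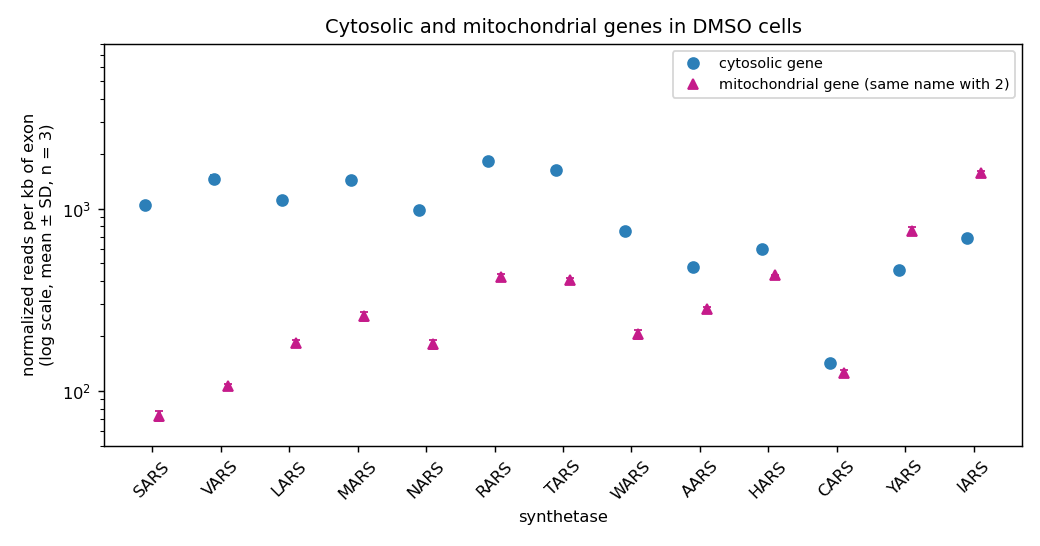
Normalized reads per kb of exon (log scale, mean ± SD of 3 DMSO libraries) for 13 cytosolic genes (circles) and the mitochondrial genes paired with them by name (triangles), ordered by their ratio. The ratio runs from 14.3 for SARS to 0.440 for IARS.

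Apart from WARS, the responses to interferon were small and went both ways. In IFNa against DMSO cells 12 synthetase genes rose and 4 fell, 43.2% of the 37, while 46.9% of all 15990 genes tested were called (25.4% higher and 21.5% lower). The share called among the synthetases was thus close to that over all genes. The median log2 change was 0.01 over the 37 and -0.01 over all genes, and the 36 genes other than WARS lay between -0.38 and 0.52. Quantile normalization, which forces every library to the same distribution, turned the split of calls to 4 higher and 16 lower. It shifted the median log2 change of all genes by -0.09. Without the third replicates 15 rose and 3 fell.

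Of the 19 cytosolic genes, 7 rose and 2 fell, with a median log2 change of 0.05. That is 47.4% called, close to the 46.9% called over all genes. After WARS the largest cytosolic rise was that of CARS, the cysteinyl enzyme. It had 1920.5, 1893 and 2035 normalized reads in IFNa libraries, against 1421, 1415 and 1438 in DMSO libraries, with no overlap. CARS rose 1.37-fold (log2 0.45 ± 0.05 SE, adjusted p 9.30e-06). TARS, the main threonyl enzyme, had 12025, 12462 and 11289.9 normalized reads in IFNa libraries, against 9302, 9439 and 9232 in DMSO libraries. The groups did not overlap and TARS rose 1.28-fold (adjusted p 0.000364), although with quantile normalization its log2 change was 0.089 and the call was lost. MARS, the methionyl enzyme that also loads the initiator tRNA, averaged 11857 ± 159.9 in IFNa and 10113 ± 151 in DMSO (SD, n = 3 each). MARS rose 1.17-fold (adjusted p 0.000601), a direction that quantile normalization turned to a log2 of -0.035.

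FARSA, the alpha subunit of phenylalanyl-tRNA synthetase, HARS, the histidyl enzyme, and YARS, the tyrosyl enzyme, rose by log2 0.19, 0.18 and 0.16, and turned to -0.016, -0.031 and -0.036 with quantile normalization. These 3 calls also rested on single libraries. FARSA was lost without IFNa replicate 1 or 2 or DMSO replicate 3 (adjusted p 0.0578 to 0.111), and HARS without IFNa replicate 1 or DMSO replicate 2 or 3 (0.0616 to 0.0873). YARS was lost without any one of the 3 IFNa or 3 DMSO libraries (0.0528 to 0.0795). FARSB, which encodes the partner subunit of FARSA, was not called (log2 -0.03, -0.24 to 0.19).

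The cytosolic genes that fell were TARSL2 and QARS. TARSL2 had 149, 183 and 172 normalized reads in IFNa libraries, against 213, 212 and 231 in DMSO libraries. It fell 1.30-fold (log2 -0.38 ± 0.11 SE, adjusted p 0.00922), and without IFNa replicate 1 the adjusted p was 0.0502. QARS, the glutaminyl enzyme, had 6100.0, 5952 and 6255 normalized reads in IFNa libraries, against 7231, 6928 and 7572 in DMSO libraries. Neither gene's groups overlapped, and QARS fell 1.19-fold (adjusted p 0.00270). The threonyl enzymes therefore moved apart, TARS up and TARSL2 down, on the deposited scale. The other 10 cytosolic genes were not called and lay between -0.12 for EPRS, the fused glutamyl and prolyl enzyme, and 0.12 for NARS, the asparaginyl enzyme.

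Both dual genes rose. GARS had 3269.8, 3399.9 and 3436 normalized reads in IFNa libraries, against 2899.6, 2903 and 2818 in DMSO libraries (1.17-fold, adjusted p 0.00367). KARS had 9266, 9665 and 8495 in IFNa libraries, against 8029, 7864 and 7882 in DMSO libraries (1.15-fold, adjusted p 0.00740). The groups did not overlap for either, but with quantile normalization GARS had a log2 change of 0.035 and KARS one of -0.017.

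Of the 16 mitochondrial genes, 3 rose and 2 fell, and the median log2 change was -0.09. That is 31.2% called, beside 46.9% over all genes, and the difference was not tested. MARS2, the mitochondrial methionyl enzyme, had 1111, 1089.8 and 1119 normalized reads in IFNa libraries, against 819.9, 766 and 734 in DMSO libraries. LARS2, the mitochondrial leucyl enzyme, had 1804, 1879 and 1663 in IFNa libraries, against 1211, 1296 and 1236 in DMSO libraries. The groups did not overlap for either gene, and each rose 1.43-fold (MARS2 log2 0.52 ± 0.06 SE, adjusted p 1.03e-05, and LARS2 log2 0.51 ± 0.06 SE, adjusted p 1.66e-05). EARS2, which holds the ISRE letters named above, had 1304, 1372 and 1206 normalized reads in IFNa libraries, against 1078, 1077 and 1089.8 in DMSO libraries. EARS2 rose 1.19-fold (adjusted p 0.00294), but with quantile normalization its adjusted p was 0.0688.

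TARS2 and IARS2, the mitochondrial threonyl and isoleucyl enzymes, fell. TARS2 had 1534, 1494 and 1442 normalized reads in IFNa libraries, against 1704, 1634 and 1634 in DMSO libraries, a 1.11-fold fall (adjusted p 0.0290). IARS2 had 6058, 6118 and 5655 in IFNa libraries, against 6447, 6305 and 6731 in DMSO libraries, a 1.09-fold fall (adjusted p 0.0289). The groups did not overlap, though both falls were small. TARS2 was lost without IFNa replicate 2 or 3 or any one DMSO library (adjusted p 0.0540 to 0.106), and IARS2 without IFNa replicate 3 or DMSO replicate 1 or 3 (0.0627 to 0.129). Without the third replicates neither fall was called (0.0693 for TARS2 and 0.218 for IARS2). The other 11 mitochondrial genes were not called and lay between -0.20 for SARS2 and 0.16 for YARS2.

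Calls in IFNa against DMSO were also counted by pair. Of the 13 cytosolic and mitochondrial pairs matched by name, MARS and MARS2 were called in the same direction and TARS and TARS2 in opposite directions. In 4 pairs the cytosolic gene alone was called, in 2 the mitochondrial gene alone, and in 5 neither. Over all genes 46.9% were called. LARS, partner of LARS2, had a log2 change of -0.04 (-0.14 to 0.06) and CARS2, partner of CARS, one of -0.07 (-0.20 to 0.05). IARS, partner of IARS2, had one of -0.03 (-0.15 to 0.08). The difference between partners was not tested.

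**Figure D3:**
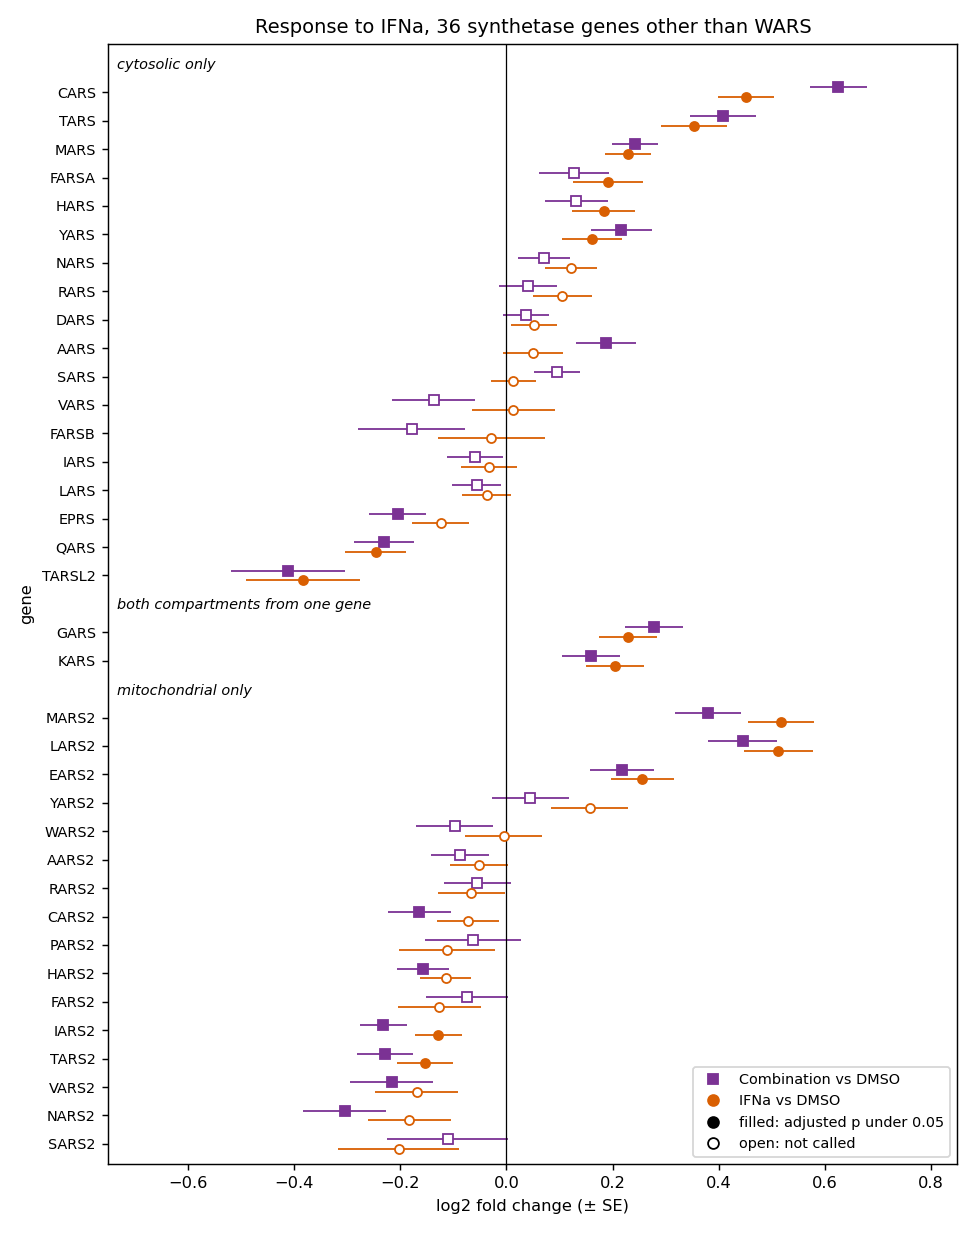
Log2 fold change (± SE) of the 36 synthetase genes other than WARS in Combination against DMSO (squares) and IFNa against DMSO (circles), with filled symbols for an adjusted p under 0.05. Both comparisons use the same 3 DMSO libraries. CARS, TARS, MARS2 and LARS2 lie farthest to the right and TARSL2 farthest to the left, on the authors' scale, which quantile normalization moves to lower values (TARS then 0.089 in IFNa against DMSO).

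Cells given both agents showed the same leading gene. In Combination against DMSO cells 11 synthetase genes rose and 9 fell, 54.1% of the 37, against 48.3% of all genes (26.1% higher and 22.2% lower). The median log2 change was -0.05, beside -0.01 over all genes. With quantile normalization, which moved the median of all genes by -0.10, the split was 5 higher and 19 lower, and relative to the median of all genes the 37 had a median of -0.03. Without the third replicates 12 rose and 6 fell. This comparison shares its DMSO libraries with IFNa against DMSO, so the values stand side by side and are not independent.

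CARS had 2060.2, 2192 and 2352 normalized reads in Combination libraries, against 1421, 1415 and 1438 in DMSO libraries, and rose 1.54-fold (adjusted p 2.85e-07). LARS2 had 1713, 1773 and 1612, against 1211, 1296 and 1236 in DMSO libraries (1.36-fold, adjusted p 5.65e-05). TARS had 12435, 12232 and 12446, against 9302, 9439 and 9232 in DMSO libraries (1.33-fold, adjusted p 9.65e-05). The groups did not overlap for any of these genes, and the calls of all 3 held with quantile normalization. MARS2 averaged 1006 ± 50.7 normalized reads in Combination and 773 ± 43.3 in DMSO (SD, n = 3 each), a 1.30-fold rise (adjusted p 0.000167). AARS, the alanyl enzyme, was called here and not in IFNa against DMSO. It had 2241, 2485 and 2658 normalized reads in Combination libraries, against 2163, 2155 and 2148 in DMSO libraries (1.14-fold, adjusted p 0.0137). The call was lost without Combination replicate 3 (0.0652) and with quantile normalization (log2 0.043). GARS, EARS2 and YARS rose by log2 0.28, 0.22 and 0.22 without that normalization and were not called with it (0.092, 0.098 and 0.026). MARS and KARS rose by 0.24 and 0.16 and turned to -0.010 and -0.049 with it, and KARS was also lost without Combination replicate 1 or 2 or any one DMSO library (adjusted p 0.0531 to 0.0958).

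Among the genes that fell in Combination against DMSO cells were 6 of the 16 mitochondrial and 3 of the 19 cytosolic genes. In the same lists 3 mitochondrial and 6 cytosolic genes rose. In either direction 56.2% of the mitochondrial and 47.4% of the cytosolic genes were called, beside 48.3% of all genes (22.2% lower). The compartments were not tested against each other. TARSL2 had 184, 159.9 and 151 normalized reads in Combination libraries, against 213, 212 and 231 in DMSO libraries (1.33-fold lower, adjusted p 0.00567). NARS2, the mitochondrial asparaginyl enzyme, had 423, 471 and 484, against 607, 542 and 553 in DMSO libraries (1.235-fold lower, adjusted p 0.00530). IARS2 had 5486, 5476 and 5617, against 6447, 6305 and 6731 in DMSO libraries (1.17-fold lower, adjusted p 0.000618). None of these groups overlapped. QARS, TARS2 and EPRS fell with log2 changes of -0.23, -0.23 and -0.21, and these 3 calls held in all 26 alternatives tried. HARS2, CARS2 and VARS2, the mitochondrial histidyl, cysteinyl and valyl enzymes, had log2 changes of -0.16, -0.16 and -0.22. HARS2 was lost without Combination replicate 1 (0.0584). CARS2 and VARS2 were lost without Combination replicate 1 or 3 or DMSO replicate 1 or 2 (adjusted p 0.0518 to 0.138 for CARS2 and 0.0896 to 0.122 for VARS2). TARSL2 was lost without the third replicates together (0.0697). NARS, partner of NARS2, had a log2 difference of 0.07 (-0.03 to 0.18) and was not called.

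**Figure D4:**
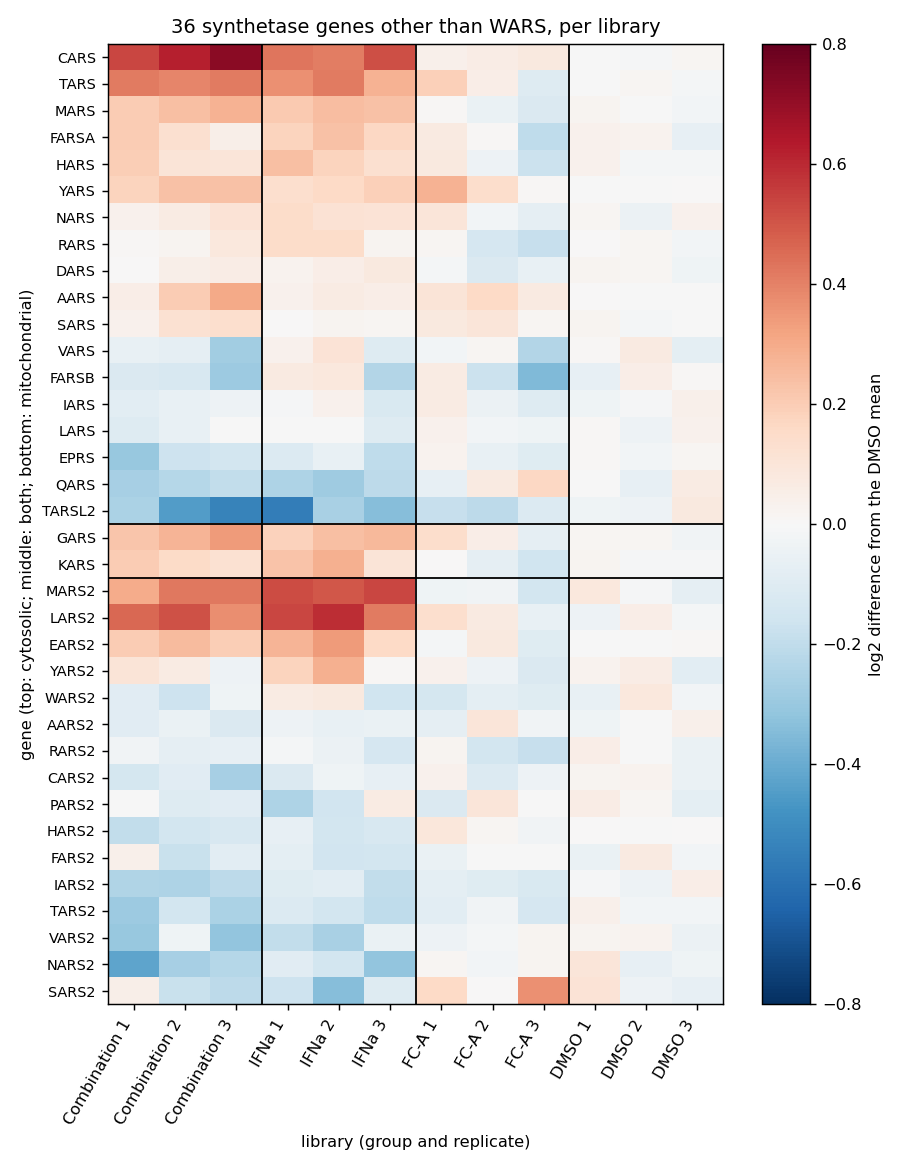
Log2 difference of each library from the mean of the 3 DMSO libraries for the 36 synthetase genes other than WARS, with cytosolic genes at the top, the dual genes GARS and KARS in the middle and mitochondrial genes at the bottom. CARS reaches 0.72 in Combination replicate 3 and TARSL2 -0.55 in IFNa replicate 1, and SARS2 differs by 0.36 in FC-A replicate 3, on the authors' scale.

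Combination against FC-A sets interferon against no interferon in cells that all had FC-A. In Combination against FC-A cells 12 synthetase genes rose and 7 fell, 51.4% of the 37, against 48.9% of all genes (26.6% higher and 22.3% lower). The split was 4 higher and 17 lower with quantile normalization and 10 higher and 9 lower in edgeR, and 12 genes were called when the 2 groups were fitted alone. Without the third replicates 10 rose and 6 fell, and HARS (adjusted p 0.0540), RARS (0.234) and VARS2 (0.168) were not called. WARS rose 11.1-fold (9.62 to 12.8; adjusted p 5.28e-13), with its library values given above. CARS averaged 2201 ± 146 normalized reads in Combination and 1485 ± 19.5 in FC-A (1.48-fold, adjusted p 8.35e-07). MARS2 averaged 1006 ± 50.7 in Combination and 737 ± 34.4 in FC-A (1.37-fold, adjusted p 3.60e-05). These SDs are over 3 libraries, and the groups did not overlap for these genes. LARS2 and TARS rose by log2 0.40 and 0.36, and TARS was not called with quantile normalization (0.11). NARS2, QARS, HARS2, EPRS and TARS2 fell with log2 changes of -0.31, -0.29, -0.18, -0.16 and -0.15. FARSA (0.17), HARS (0.18) and RARS (0.14) were called higher close to the threshold (adjusted p 0.0469, 0.0245 and 0.0496) and turned to -0.045, -0.038 and -0.077 with quantile normalization. The call of EPRS was lost without Combination replicate 1 or FC-A replicate 1 (adjusted p 0.0825 to 0.117) and that of HARS without Combination replicate 1 or FC-A replicate 2 or 3 (adjusted p 0.0587 to 0.111). IARS2 was lost when any one of Combination replicates 1 and 2 and FC-A replicates 1 and 2 was left out (adjusted p 0.0544 to 0.0703), and TARS2 when any one of Combination replicates 1 and 3 and FC-A replicates 1 and 2 was (adjusted p 0.0593 to 0.127). FARSA was lost without any one of 9 libraries, all but Combination replicate 3, IFNa replicate 3 and FC-A replicate 1 (adjusted p 0.0528 to 0.219). VARS2 was lost without any one of 9, all but Combination replicate 2 and IFNa replicates 2 and 3 (adjusted p 0.0510 to 0.146). RARS was lost without any one of 10, all but IFNa replicate 3 and FC-A replicate 1 (adjusted p 0.0543 to 0.179).

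FC-A by itself moved no synthetase gene past the threshold. In FC-A against DMSO cells 0 of the 37 were called by limma, against 0.3% of all genes. The 37 log2 differences lay between -0.17 and 0.18, with a median of -0.03 beside 0.00 over all genes. At an unadjusted p under 0.05 there were 2 of the 37, YARS and IARS2, beside 8.61% of all genes. Both edgeR and DESeq2 also called 0 of the 37. YARS had 4558, 4147 and 3785 normalized reads in FC-A libraries, against 3752, 3750.4 and 3767 in DMSO libraries (log2 0.14, adjusted p 0.479). IARS2 had 6143, 6068 and 5961 in FC-A libraries, against 6447, 6305 and 6731 in DMSO libraries (log2 -0.10, adjusted p 0.557). The groups did not overlap for either gene, but neither was called, and how many of all genes were separated in this way was not counted. For WARS the log2 difference was -0.05 with a 95% interval of -0.25 to 0.15, which bounds any change at this depth and spread.

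Added to interferon, FC-A was likewise followed by no call. In Combination against IFNa cells 0 of the 37 passed in limma, against 0.331% of all genes. An unadjusted p under 0.05 was found for 13.2% of all genes and for 5 of the 37. WARS was the largest of these, with the library values given above and a log2 difference of 0.34 ± 0.09 SE (1.26-fold, 1.10 to 1.45; adjusted p 0.175 in limma). The groups overlapped, since IFNa replicate 3 lay above Combination replicate 1. In both groups the third replicate was the highest. WARS was called higher with a term for the third replicates (adjusted p 0.00828), without them (0.00160), with a block for the replicate number (0.0111), without IFNa replicate 3 (0.0238) and in the authors' deposited table (0.0476), and not in the other 21 alternatives, among them edgeR (0.184) and DESeq2 (0.0521). CARS had 2060.2, 2192 and 2352 normalized reads in Combination libraries, against 1920.5, 1893 and 2035 in IFNa libraries (log2 0.17, adjusted p 0.210). These did not overlap, a separation that was not counted over all genes. CARS was called with the block (0.0390) and with the term for the third replicates (0.0290). AARS, IARS2 and MARS2 had log2 differences of 0.14, -0.10 and -0.14 (adjusted p 0.331, 0.341 and 0.363).

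Whether FC-A acted differently with interferon than without was tested as an interaction, which was called for 0 of 15990 genes in limma (0% called). An unadjusted p under 0.05 was found for 627 genes, 3.92% of all. Among the 37 this held for WARS, with an interaction of 0.38 ± 0.13 SE on the log2 scale (0.10 to 0.67; limma's adjusted p 0.9998). DESeq2 called 3 genes and edgeR 0, and neither called a synthetase gene. The adjusted p for WARS ran from 0.121 to 0.9999 over the alternatives.

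**Figure D5:**
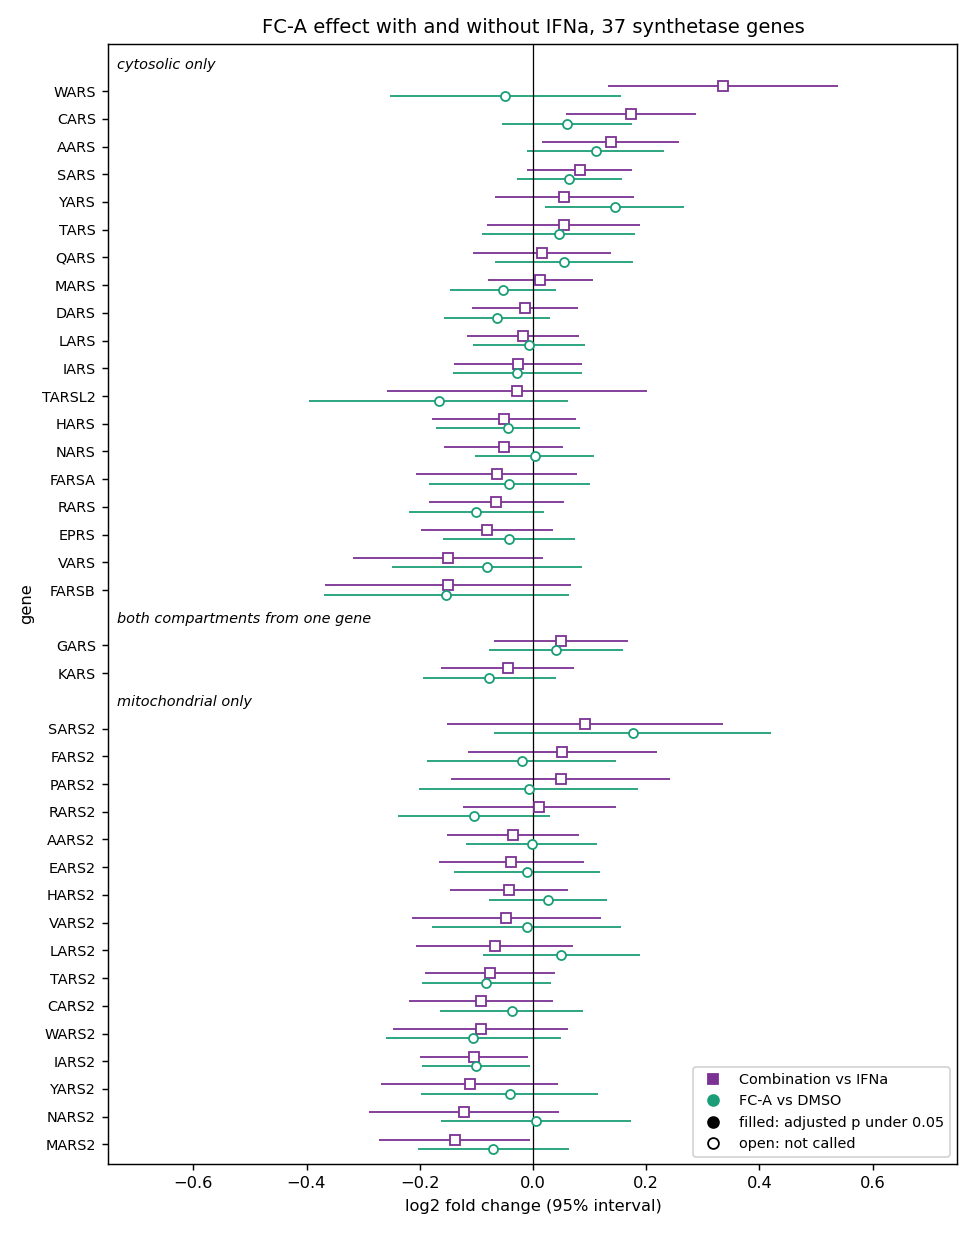
Log2 fold change with its 95% interval for the FC-A effect in the presence of interferon (Combination against IFNa, squares) and in its absence (FC-A against DMSO, circles) for the 37 synthetase genes. All symbols are open, since no gene had an adjusted p under 0.05, and WARS in Combination against IFNa lies farthest from 0 at 0.34.

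Summed over genes, cytosolic synthetases stood higher relative to mitochondrial ones where interferon was given, and most of that difference was WARS. Summed length-scaled levels of the 19 cytosolic genes were 5.07 to 5.57 times those of the 16 mitochondrial genes in Combination libraries and 4.57 to 4.99 times in IFNa libraries. They were 3.48 to 3.67 times in FC-A libraries and 3.48 to 3.51 times in DMSO libraries. Without WARS the ratio was 3.64 to 3.71 in Combination, 3.5 to 3.57 in IFNa, 3.35 to 3.53 in FC-A and 3.34 to 3.36 in DMSO. The IFNa and FC-A ranges then overlapped. These sums are descriptions and were not tested.

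Enzymes of the multisynthetase complex and those outside it were counted separately. Of the 8 complex enzymes (DARS, EPRS, IARS, KARS, LARS, MARS, QARS and RARS), 2 rose and 1 fell in IFNa against DMSO cells, with a median log2 change of 0.01. Of the 13 other cytosolic or dual genes, 7 rose and 1 fell, with a median of 0.16. These are 37.5% called inside the complex and 61.5% outside it, beside 46.9% over all genes, and the difference was not tested. In Combination against DMSO cells the counts were 2 higher and 2 lower of 8, and 6 higher and 1 lower of 13, which is 50% and 53.8% called beside 48.3% over all genes. The scaffold genes AIMP1, AIMP2 and EEF1E1 were not called against DMSO in any group. AIMP1 averaged 1560.0 ± 41.9 normalized reads in Combination, 1620.1 ± 20.4 in IFNa, 1361 ± 69.4 in FC-A and 1491 ± 67.2 in DMSO (SD, n = 3 each). It was called higher in Combination against FC-A (log2 0.20, adjusted p 0.00695, and 0.070, not called, with quantile normalization). AIMP2 averaged 1342 ± 57.3 in Combination, 1376 ± 85.1 in IFNa, 1379 ± 134 in FC-A and 1473 ± 46.7 in DMSO. EEF1E1, with 18.7% of its exon length shared with a read-through transcript and so uncertain, averaged 154 ± 18.9 in Combination, 162 ± 3.28 in IFNa, 133 ± 25.7 in FC-A and 166 ± 2.5 in DMSO.

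A further list held the 12 cytosolic or dual synthetase genes that are known as ATF4 targets (AARS, CARS, EPRS, GARS, IARS, LARS, MARS, NARS, SARS, TARS, WARS and YARS). In IFNa against DMSO cells 6 of them rose and 0 fell, with a median log2 change of 0.14, while of the other 25 genes 6 rose and 4 fell, with a median of -0.05. That is 50% of the 12 and 40% of the 25, both near the 46.9% called over all genes. In Combination against DMSO cells 7 rose and 1, EPRS, fell (0.20), and of the other 25 genes 4 rose and 8 fell (-0.09), 66.7% of the 12 and 48% of the 25 beside 48.3% over all genes. The lists were not tested against each other. In FC-A against DMSO 0 of the 12 were called. Several of these rises did not hold with quantile normalization, as given for TARS, MARS, GARS, YARS and AARS above.

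Promoter windows of these genes are shown for the letters that ATF4 with a C/EBP partner is known to bind. TGATGNAA (CARE) stands in capitals, read on either strand, with its neighbours in the direction of transcription (GRCh38.p14, RefSeq).
CARS, chromosome 11, minus strand: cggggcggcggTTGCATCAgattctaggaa
MARS, chromosome 12, plus strand: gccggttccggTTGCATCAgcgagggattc
AARS, chromosome 16, minus strand: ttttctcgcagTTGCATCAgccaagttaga
IARS, chromosome 9, minus strand: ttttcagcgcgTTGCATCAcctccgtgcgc
NARS, chromosome 18, minus strand: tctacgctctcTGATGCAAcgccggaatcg
TARS, chromosome 5, plus strand: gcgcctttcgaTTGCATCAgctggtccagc
GARS, chromosome 7, plus strand: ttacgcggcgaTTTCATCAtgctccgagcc
YARS2, chromosome 12, minus strand: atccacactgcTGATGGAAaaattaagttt
These are the 8 of 30 synthetase genes with a window in which the letters were found, 7 of them among the 10 listed ATF4 targets with a window and 1, YARS2, among the other 20. Over all 27305 RefSeq genes with a window, 4.46% held them. The first base of the match lay at -2 in CARS, -4 in MARS, 3 in TARS and -13 in IARS. It lay at 15 in NARS, -33 in GARS, -187 in AARS and -197 in YARS2. These positions count the start as 1, with no 0. Of these 8 genes, 4 rose and 0 fell in IFNa against DMSO cells and 5 rose and 0 fell in Combination against DMSO cells. Of the 22 with a window and without the letters, 7 rose and 3 fell in IFNa against DMSO cells, and 5 rose and 7 fell in Combination against DMSO cells. Over all genes 46.9% were called in IFNa against DMSO and 48.3% in Combination against DMSO, and the split by these letters was not tested. The CARS window also holds GAS letters, which begin at 9, a few bases after the CARE match. No window was found for DARS, LARS, TARSL2, VARS, YARS, AARS2 and VARS2.

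Of 12 genes that control these pathways, 8 rose and 1 fell in Combination against DMSO and likewise in IFNa against DMSO, 75% of the list beside 48.3% and 46.9% of all genes, and 3 were not called. ATF4 itself rose in Combination against DMSO (log2 0.66, adjusted p 5.87e-08) and in IFNa against DMSO (log2 0.52, adjusted p 8.72e-07). With quantile normalization the ATF4 changes were 0.43 in Combination and 0.27 in IFNa, both still called. DDIT3, a transcription factor induced downstream of ATF4, rose by log2 1.36 in Combination and 1.02 in IFNa. EIF2AK4, the kinase that senses uncharged tRNA, fell, with log2 changes of -0.39 in Combination and -0.29 in IFNa. EIF2AK2, the interferon-induced kinase PKR, rose by 2.89 in Combination and 2.87 in IFNa. IRF1, a transcription factor that binds ISRE letters, rose by 3.08 in Combination and 2.86 in IFNa. The growth regulator MYC was called higher in IFNa against DMSO and in Combination against DMSO (log2 1.71 and 1.46 without the third replicates). In FC-A against DMSO MYC was called lower in limma, with log2 -0.46 over all libraries (adjusted p 0.00877) and -0.42 without the third replicates (0.00221). The call over all libraries was lost when FC-A replicate 2, DMSO replicate 1 or DMSO replicate 2 was left out (adjusted p 0.0502 to 0.0650). Transcript levels do not show the activity of ATF4 or of the kinases.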

How the data were processed

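Poly(A) RNA of 12 OVCAR-3 samples, 4 groups of 3, was sequenced in a strand-aware way from 100 ng of total RNA, per the labels, which also gave the groups and replicate numbers. The signal values are normalized read counts per gene, deposited by the authors. When each library was multiplied by a single factor, 100% of its values came within 0.01 of a whole number, so whole reads were recovered and summed as depth. Tools and build in the submitters' processing notes were hg19, STAR 2.7.3, DESeq2 1.24.0, FastQC and bcl2fastq 2.20, while a read counter and an annotation are not named there. The log2 fold changes, score column (test statistic) and p-values of the authors' deposited tables served as an alternative. No column of per-sample values lacked a sample.

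Values entered as log2(value + 1) for genes whose average over the 12 libraries reached 10 normalized reads, which understates the change of low genes. limma 3.58.1 in R 4.3.3 fitted 4 group means with a variance trend. Moderated tests were two-sided and adjusted over 15990 genes by the Benjamini-Hochberg method, and called means an adjusted p under 0.05. The same procedure was also run on simulated data that held rises only and no difference between replicates. No result given here rests on that run. Since the values are normalized, edgeR 4.0.16 and DESeq2 1.42.0 ran as alternatives, on recovered reads. Intervals are 95%.

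The members and gene lists were chosen with earlier results of these data known. Full values are given for WARS, for up to 8 called members in each direction in IFNa against DMSO and up to 5 in each other comparison, for their partners in the other compartment and for the scaffold genes. Exon lengths and overlaps come from GENCODE v29 on GRCh38, another build than the files', matched by gene ID. Promoter windows come from RefSeq (GRCh38.p14).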

Additional observations from a re-analysis of the deposited data

How the results depend on the processing

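Over 26 alternatives (24 for the interaction) WARS kept its direction and its side of the threshold in each comparison with DMSO or FC-A, with log2 changes of 2.84 to 3.16 in IFNa against DMSO and 3.16 to 3.49 in Combination against DMSO. CARS, MARS2 and LARS2 also kept theirs in IFNa against DMSO and in Combination against DMSO. Pseudocounts of 0.5 and 8 and a minimum mean of 50 changed none of the 55 calls on members, and TMM scaling, edgeR and DESeq2 lost 2 each. The authors' deposited table lost 5, no filter, no variance trend and a fit of the compared groups alone lost 7 each, and leaving out the third replicates lost 9. Quantile normalization lost 12 calls and reversed 10 more: in IFNa against DMSO, FARSA (-0.016), HARS (-0.031), MARS (-0.035), YARS (-0.036) and KARS (-0.017); in Combination against DMSO, MARS (-0.010) and KARS (-0.049); in Combination against FC-A, FARSA (-0.045), HARS (-0.038) and RARS (-0.077). By construction it removes the difference in total between the groups, and why these calls changed was not tested.

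In Combination against IFNa, where 0 members were called, 3 were called with the replicate block and 3 with a term for the third replicates (WARS, CARS and VARS in each), 2 without the third replicates (WARS and IARS2), 1 in the authors' deposited table and 1 without IFNa replicate 3 (WARS in each). In Combination against FC-A, 12 instead of 19 were called when the 2 groups were fitted alone, with fewer samples. Leaving out 1 library gave 11 to 17 calls in IFNa against DMSO, 17 to 22 in Combination against DMSO, 0 to 1 in Combination against IFNa, 14 to 20 in Combination against FC-A, and 0 in FC-A against DMSO and in the interaction. An arm left with 2 libraries was assumed to vary like the other groups.

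Replicate numbers do not mark a shared culture in the labels, so the numbers were not treated as pairs. The deviations of same-numbered libraries were nevertheless positively correlated in all 18 pairs, between 0.0176 and 0.395, and over 0.1 in 10 of them. For replicate 3 these correlations ran from 0.188 to 0.395. Whether libraries of one number shared a culture or a batch was not tested. With the replicate block 19, 24, 0, 3, 20 and 0 members were called in IFNa against DMSO, Combination against DMSO, FC-A against DMSO, Combination against IFNa, Combination against FC-A and the interaction, and none of the 55 calls was lost. At 31.2 to 39.5 M reads per library the spread between libraries limits these results: the median SE over all genes was 0.0924 on the log2 scale.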

Other observations

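Genes that act beside the synthetases in charging and delivering tRNA were called in both directions. Of 18 such genes tested, 4 rose and 8 fell in Combination against DMSO cells, 4 rose and 3 fell in IFNa against DMSO cells, which is 66.7% beside 48.3% of all genes in Combination and 38.9% beside 46.9% in IFNa, and 0 were called in FC-A against DMSO or in Combination against IFNa. TRNT1, which adds the CCA end to tRNA, rose by log2 0.40 in Combination against DMSO and 0.40 in IFNa against DMSO (adjusted p 0.000483 in Combination and 0.000467 in IFNa, limma). PTRH2, a peptidyl-tRNA hydrolase, rose by 0.28 in Combination and 0.27 in IFNa. DTD1, which removes D-amino acids from tRNA, fell, with -0.31 in Combination and -0.27 in IFNa. EEF1A1, the elongation factor that carries charged tRNA to the ribosome, fell, with -0.19 in Combination and -0.21 in IFNa. The EEF1A1 calls were lost without Combination replicate 1 or 2 or any one DMSO library in Combination against DMSO (adjusted p 0.0511 to 0.108), and without IFNa replicate 1 or DMSO replicate 3 in IFNa against DMSO (0.0644 to 0.0812). TUFM and TSFM, the mitochondrial elongation factors, were called in Combination against DMSO (-0.17 and -0.22) and not in IFNa against DMSO (-0.07 and -0.10). The difference between these effects is Combination against IFNa, which called neither (-0.10 and -0.12). Without the third replicates TSFM was not called in Combination against DMSO either (0.0583). TSFM is uncertain, since 18.7% of its exon length is shared on the same strand with another transcript.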
